A study of Mus musculus with 25 samples.

Results

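The comparison described here is the difference between the responses of 2 Tsc-deficient fibroblast lines to 24 h of rapamycin. For each gene, the change from vehicle to rapamycin in the Tsc2-null line was subtracted from the same change in the Tsc1-null line. It used 10 of the 25 arrays of the study, with 3 vehicle and 2 rapamycin arrays for each line. Both lines are immortalized mouse embryonic fibroblasts. The Tsc1-null line is Tsc1-/- with p53+/+ and 3T3-immortalized, while the Tsc2-null line is Tsc2-/- with p53-/-. All 4 groups were plates at 70% confluence in 10 cm dishes, starved of serum for 24 h, and received either DMSO as vehicle for 24 h or 20 nM rapamycin for 24 h. RNA from each plate was hybridized to 1 Affymetrix whole-genome mouse array, and a level below is the deposited log2 value of 1 probe set per gene. Each genotype is 1 line and the replicates are plates of that line, so p-values measure the spread between plates, and the deleted gene, p53 status and the history of the line cannot be told apart in any difference between the lines. No rapamycin-treated wild-type arrays were analysed here.

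TSC1 and TSC2 form a complex that keeps the small GTPase RHEB inactive. Without it, RHEB holds the kinase complex mTORC1 active even when serum is withdrawn, and mTORC1 raises protein, lipid and nucleotide synthesis, glycolysis and progress through the cell cycle. Rapamycin binds FKBP12 and inhibits mTORC1.

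The arrays had medians of 6.26 to 6.41 on the log2 scale, and replicate arrays correlated at 0.996 to 0.998 over 8 pairs. Of 10 fibroblast markers, 9 stood above 6 in all 4 groups, among them Col1a1, Col1a2, Vim and S100a4, while Lum, also a fibroblast marker, stood at 5.34 to 5.80. The Tsc1 probe set stood at 6.92, 7.02 and 7.38 on the Tsc1-null vehicle arrays and at 8.72 to 8.87 on the Tsc2-null ones. The only Tsc2 probe set stood at 9.64 to 9.72 in Tsc1-null and at 9.46 to 9.54 in Tsc2-null vehicle cells. Whether it lies outside the deleted part was not tested. The title and time label of the Tsc1-null 24 h samples give 24 h, but their free-text field gives 14 h, and that of the Tsc1-null 12 h samples gives 11 h. For the gene lists and genes whose counts or values move with it, the comparison was also made with the Tsc2-null 12 h arrays in place of its 24 h arrays, called the 12 h match below.

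Rapamycin changed a large share of genes differently in the 2 lines. By limma with Benjamini-Hochberg adjustment over 18162 genes, 5376 genes (29.6%) responded in the Tsc1-null and 6462 (35.6%) in the Tsc2-null line. In the same fit, 3669 genes (20.2%) passed an adjusted p of 0.05 for the difference of responses. For 1478 of them (8.14% of genes tested) the response was higher, that is more positive, in the Tsc1-null line, and for 2191 (12.1%) it was lower. The median size of the difference was 0.60 on the log2 scale among the genes called and 0.17 among all genes. At least a 2-fold difference of responses was reached by 386 genes that were higher and 263 that were lower in the Tsc1-null line, which is 2.13% and 1.45% of those tested. The last gene inside the threshold, Gm34344, had a difference of -0.33, and the first outside it, Cd248, one of -0.29.

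The shape of the difference varied. In 1564 of the 3669 genes the Tsc2-null response passed the test and the Tsc1-null response did not, and in 809 the reverse held. Both responses passed with the same sign in 760 genes, of which 518 responded more in the Tsc2-null and 242 more in the Tsc1-null line. Both passed with opposite signs in 437 genes, 2.41% of those tested. Of these, 241 (1.33%) rose in Tsc1-null and fell in Tsc2-null cells, and 196 (1.08%) did the reverse. Those counts depended on single plates. Without replicate 2 of the Tsc1-null 24 h arrays the 241 became 147. The 196 became 121 without replicate 1 of the Tsc1-null 24 h arrays and 130 without replicate 1 of the Tsc2-null 24 h arrays. In 99 genes neither response alone passed. A level under 6 in both groups of 1 line, near the low end of the array, was found for the Tsc1-null line alone in 87 and for the Tsc2-null line alone in 23 of the 649 genes that differed at least 2-fold.

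**Figure D1:**
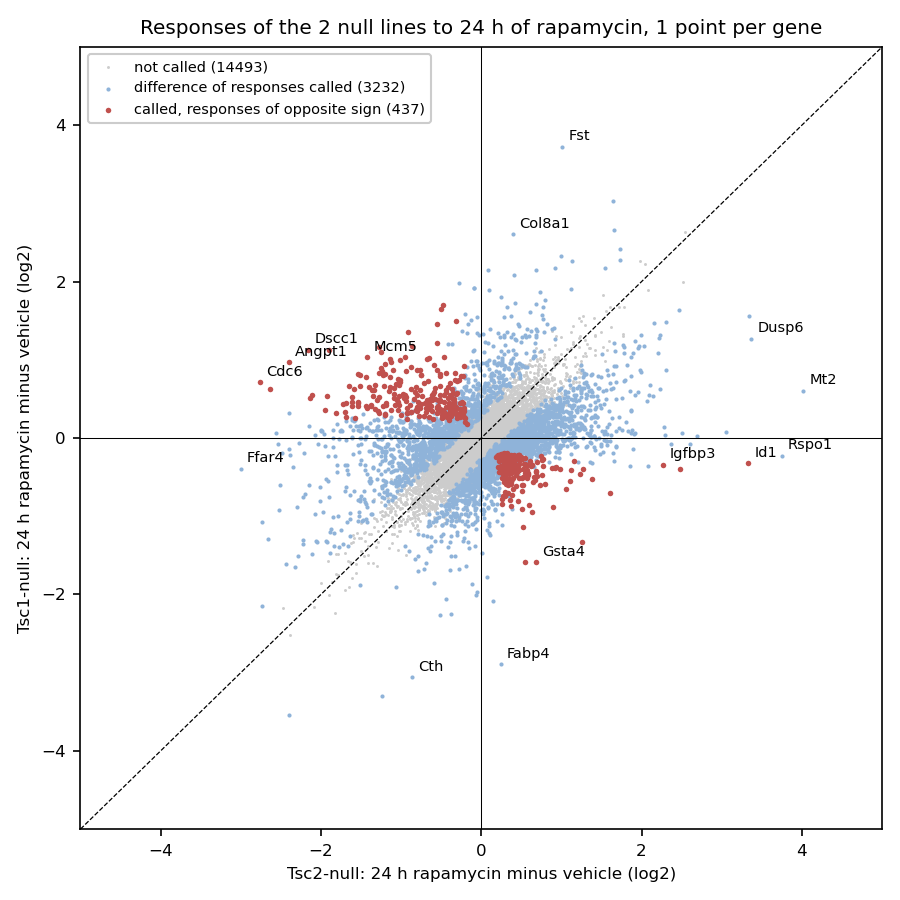
Response to 24 h of rapamycin (log2 difference from vehicle) in Tsc2-null cells on the horizontal and in Tsc1-null cells on the vertical axis, 1 point for each of 18162 genes, with the dashed line marking equal responses. The 437 genes with called responses of opposite sign, in red, lie in the upper left (241 genes, such as Cdc6, Angpt1 and Mcm5) and lower right (196 genes, such as Gsta4 and Igfbp3), and Rspo1 and Mt2 lie far to the right of the line.

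Cell cycle genes differed mostly in 1 direction, falling in Tsc2-null cells and more often rising than falling in Tsc1-null cells. Of 39 measured genes, 34 had a response that was higher in the Tsc1-null line and 2 one that was lower, with a median difference of 1.45 against -0.02 for all genes. In Tsc2-null cells 35 of the 39 fell (median -1.13) and 3 rose, where 18.1% of all genes fell. In Tsc1-null cells 19 rose and 6 fell (median 0.20), where 11.6% of all genes rose. For 17 genes the responses passed the test in opposite directions. The list was one of those written with earlier results of these data known.

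Genes that license replication origins and open S phase are described first. Promoters of 3 of them are shown, since E2F factors, which drive the entry into S phase, are known to bind sites of this kind in them. The sequences are RefSeq promoter windows on GRCm38.p6, from 250 bases before to 50 after the start, written 5′ to 3′ along the gene's strand, with capitals for matches on either strand to the letters TTTCCCGC, TTTGGCGC, TTTCGCGC or TTTGCCGC. The windows are chr8:75109259-75109558 (+) for Mcm5, chr1:128359656-128359955 (-) for Mcm6 and chr11:98907901-98908200 (+) for Cdc6.
Mcm5: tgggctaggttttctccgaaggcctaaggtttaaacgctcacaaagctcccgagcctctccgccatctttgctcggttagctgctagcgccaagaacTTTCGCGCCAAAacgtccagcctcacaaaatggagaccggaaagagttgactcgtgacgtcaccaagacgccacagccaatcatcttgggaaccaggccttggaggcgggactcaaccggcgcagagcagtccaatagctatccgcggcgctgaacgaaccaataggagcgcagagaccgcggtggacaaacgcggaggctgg
Mcm6: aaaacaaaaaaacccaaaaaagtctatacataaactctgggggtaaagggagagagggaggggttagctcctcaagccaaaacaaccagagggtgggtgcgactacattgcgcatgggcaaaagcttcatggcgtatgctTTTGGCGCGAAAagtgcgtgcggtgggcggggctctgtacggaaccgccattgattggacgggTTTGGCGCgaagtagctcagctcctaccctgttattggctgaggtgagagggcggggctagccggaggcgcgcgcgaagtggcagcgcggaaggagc
Cdc6: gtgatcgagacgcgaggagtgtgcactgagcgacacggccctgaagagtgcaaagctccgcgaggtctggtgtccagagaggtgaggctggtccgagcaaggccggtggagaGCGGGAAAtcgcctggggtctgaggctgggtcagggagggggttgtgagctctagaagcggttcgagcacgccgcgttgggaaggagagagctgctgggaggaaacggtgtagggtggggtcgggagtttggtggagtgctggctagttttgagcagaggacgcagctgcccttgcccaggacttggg
Mcm5 has 2 matches that overlap, Mcm6 has 3, of which 2 overlap, and Cdc6 has 1. Such letters were found in 9 of the 31 cell cycle genes with a window (29.0%) and in 32 of 201 genes (15.9%) that rose in Tsc1-null and fell in Tsc2-null cells. They were found in 9 of 164 genes (5.49%) with the reverse pattern and in 550 of 14462 genes tested that have a window (3.80%). Over all 32851 windows the share was 2.26%. A match describes the letters and is no evidence of binding.

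Cdc6, which loads the replicative helicase at origins, stood at 6.12, 5.69 and 5.92 in Tsc1-null vehicle cells and at 6.37 and 6.87 after rapamycin. The Tsc2-null arrays had it at 9.04, 8.98 and 8.75 under vehicle and at 5.98 and 6.34 after rapamycin. Within each line the treated and untreated arrays did not overlap, and the treated arrays of the 2 lines lay within the range from 5.98 to 6.87. The Tsc1-null vehicle arrays and the treated Tsc2-null arrays were near the low end of the array. The responses were 0.71 and -2.77, a difference of 3.48 (SE 0.21, limma adjusted p = 2e-10), or 11.2-fold. The rise in Tsc1-null cells was small, and without replicate 2 of the Tsc1-null 24 h arrays it was 0.46 with a limma adjusted p of 0.0501. In the deposited log2 ratios the Tsc1-null response was 0 and the difference 1.10.

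Mcm5, a subunit of that helicase, stood at 9.28, 9.39 and 9.48 under vehicle and at 10.28 and 10.56 after rapamycin in Tsc1-null cells. On the Tsc2-null side it stood at 10.15, 10.06 and 10.14 under vehicle and at 8.75 and 8.65 after rapamycin. The order of the lines turned over. Mcm5 was lower in Tsc1-null than in Tsc2-null cells by a log2 difference of -0.73 under vehicle and higher by 1.72 at 24 h, a difference of responses of 2.46 (SE 0.12, limma adjusted p = 1.6e-11). Its fellow helicase subunits Mcm3, Mcm4, Mcm6 and Mcm7 had differences of 2.03, 1.50, 1.41 and 1.49. Cdt1, the other loading factor, rose by 0.80 in Tsc1-null and fell by 0.75 in Tsc2-null cells. Ccne2, an E-type cyclin of the G1/S step, rose by 1.13 and fell by 1.90.

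All 18 measured genes of G2 and mitosis had a higher response in the Tsc1-null line (median difference 1.50). All 18 fell in Tsc2-null cells, while in Tsc1-null cells 9 rose and 1 fell. Top2a, the DNA topoisomerase of dividing cells, stood at 9.64, 9.80 and 9.78 under vehicle and at 10.25 and 10.56 after rapamycin in Tsc1-null cells. In Tsc2-null cells Top2a stood at 11.32, 11.25 and 11.23 under vehicle and at 9.72 and 9.79 after rapamycin. The 2 treated Tsc1-null arrays lay above all Tsc1-null vehicle arrays, and the 2 treated Tsc2-null arrays lay below all of theirs. The dimmer probe sets of Top2a had differences of 0.54 and -0.05 against 2.18 for the one used. The proliferation marker Mki67 rose by 0.61 and fell by 1.36, and the kinetochore motor Cenpe rose by 0.90 and fell by 1.25. With the 12 h match the Tsc2-null changes of Top2a, Mki67 and Cenpe were -0.22, -0.04 and -0.20, none of them called. The differences of Birc5, Ccnb2 and Kif20a reversed sign with that match. Without replicate 2 of the Tsc1-null 24 h arrays the Mki67 rise was 0.31. The mitotic kinase gene Aurkb changed by 0.18 in Tsc1-null cells, which did not pass the test, and fell by 1.80 in Tsc2-null cells. Bub1, a kinase of the spindle checkpoint, passed in both lines with the same sign, with changes of -0.37 and -2.34.

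Genes of DNA synthesis and nucleotide supply differed in the size of the response. Of 5 measured, 4 had a higher response in the Tsc1-null line and none had called responses of opposite sign. Rrm2, the small subunit of ribonucleotide reductase, fell by 1.08 in Tsc1-null and by 2.73 in Tsc2-null cells. Pcna, the polymerase clamp, fell by 0.41 and 1.67. The D cyclins, which act upstream of E2F, split. Ccnd1 rose in both lines and more in Tsc1-null cells (1.07 against 0.42), although its other probe sets had differences of responses of 0.31 and -0.04. Ccnd2 fell by 1.06 in Tsc1-null cells against a change of +0.20 in Tsc2-null cells, which did not pass, and Ccnd3 rose by 0.87 in Tsc2-null cells against -0.04 in Tsc1-null cells, which did not pass. The other probe sets of Ccnd3 had uncalled differences of -0.26 and -0.08.

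**Figure D2:**
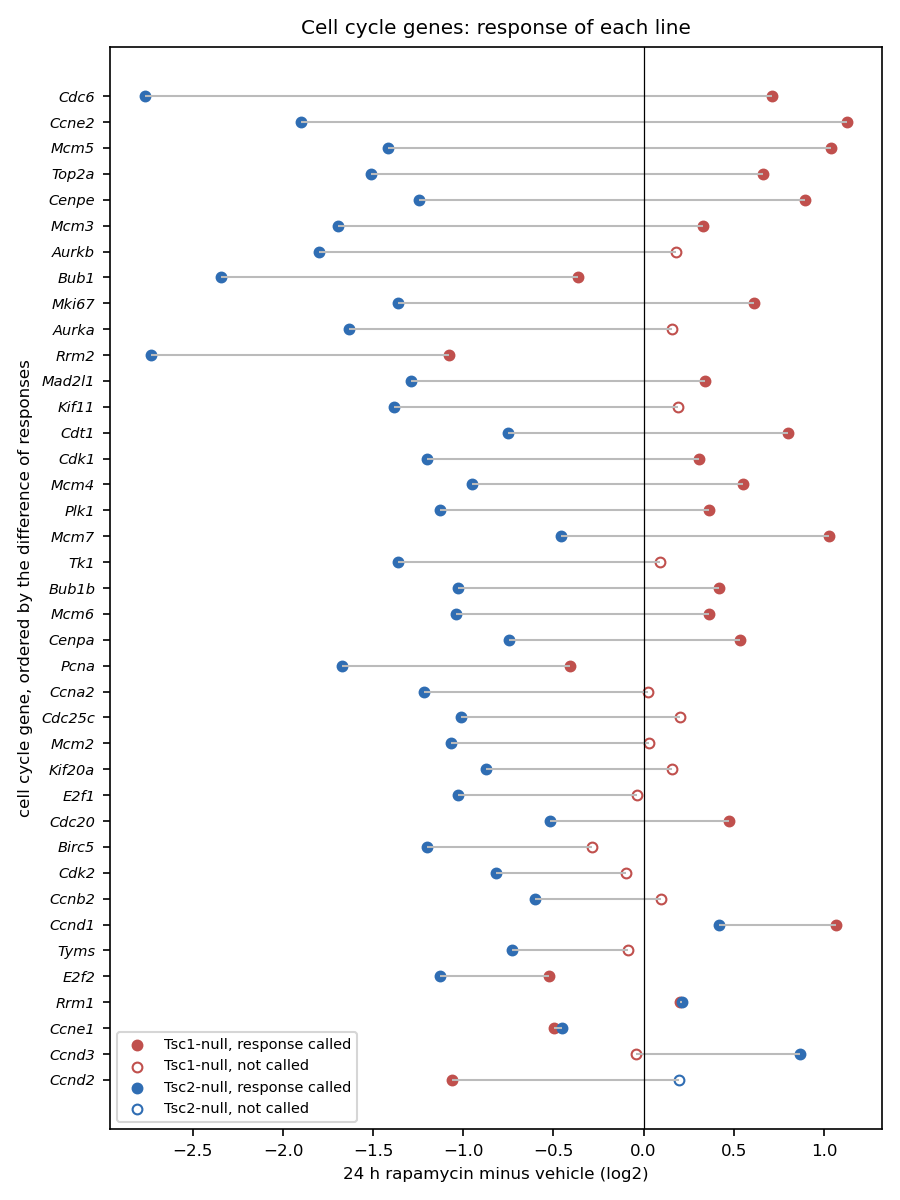
Response to 24 h of rapamycin (log2 difference from vehicle) of 39 cell cycle genes, 1 row per gene, ordered by the difference of responses, with Tsc1-null in red and Tsc2-null in blue and filled points for responses that passed the test. In Tsc2-null cells 35 genes fell, whereas in Tsc1-null cells 19 rose and 6 fell.

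Under vehicle, 43.4% of all genes differed between the lines, and at 24 h 38.2%. Under vehicle, 34 of the 39 cell cycle genes were lower and 3 higher in Tsc1-null than in Tsc2-null cells (median -1.02). At 24 h of rapamycin 20 were higher and 6 lower (median 0.34). The rise in the Tsc1-null line was uneven between its 2 treated plates. Replicate 1 had 22 of 39 genes above the Tsc1-null vehicle mean, with a median deviation of 0.10, and replicate 2 had 30, with a median deviation of 0.37. The Tsc2-null treated plates each had 4 genes above their vehicle mean and medians of -1.08 and -1.14. Without Tsc1-null replicate 2, the genes rising in that line numbered 10 in place of 19 and those of opposite sign 9 in place of 17, while 33 of 39 still had a higher response in the Tsc1-null line. Without Tsc1-null replicate 1, the genes falling in that line numbered 2 in place of 6. With the Tsc2-null 12 h arrays in place of its 24 h arrays, as a match to the 14 h of the free-text field, 25 genes had a higher response in the Tsc1-null line, the median was 0.62 and 10 were of opposite sign. In bulk samples fewer cycling cells and less RNA per cell cannot be told apart.

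Outside that list, genes that rose in Tsc1-null and fell in Tsc2-null cells included other proliferation genes. Dscc1, a subunit of a clamp loader for sister chromatid cohesion, rose by 1.13 and fell by 2.16. Ect2, which acts in cytokinesis, rose by 1.16 and fell by 1.28, and the line order reversed from -1.32 under vehicle to 1.13 at 24 h. With the 12 h match the Tsc2-null change of Ect2 was -0.05, which was not called. Hells, a chromatin remodeller, rose by 0.51 and fell by 2.14, but without replicate 2 of the Tsc1-null 24 h arrays its Tsc1-null response was 0.28 (limma adjusted p = 0.125).

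Angpt1 had the largest positive difference among called genes after Cdc6. It encodes angiopoietin 1, the ligand of the endothelial receptor TIE2. It stood at 9.87, 9.84 and 10.01 under vehicle and at 10.81 and 10.94 after rapamycin in Tsc1-null cells. In Tsc2-null cells it stood at 8.12, 8.08 and 8.0 under vehicle and at 5.96 and 5.37, near the low end of the array, after rapamycin. No array of one group overlapped another, and the gap between the lines widened from 1.84 to 5.21. The difference of responses was 3.37 (SE 0.20, limma adjusted p = 1.5e-10).

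In the other direction, genes that fell in Tsc1-null and rose in Tsc2-null cells included a glutathione transferase and a binding protein for insulin-like growth factors. Gsta4, which conjugates lipid aldehydes, stood at 12.80, 12.80 and 12.97 under vehicle and at 11.27 and 11.28 after rapamycin in Tsc1-null cells. The Tsc2-null arrays had it at 11.07, 11.10 and 11.15 under vehicle and at 11.80 and 11.76 after rapamycin. The spread within each group was far smaller than the shifts, and the difference of responses was -2.26 (SE 0.10, limma adjusted p = 5.1e-12). Gsta4 was higher in the Tsc1-null line by 1.75 under vehicle and lower at 24 h, by a difference of -0.51. Arhgap44 had responses of -0.70 and 1.61, and Mest, an imprinted gene, of -0.53 and 1.38. Across all genes, 236 (1.30%) were called lower in the Tsc1-null line under vehicle and higher at 24 h, and 161 (0.886%) the reverse.

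**Figure D3:**
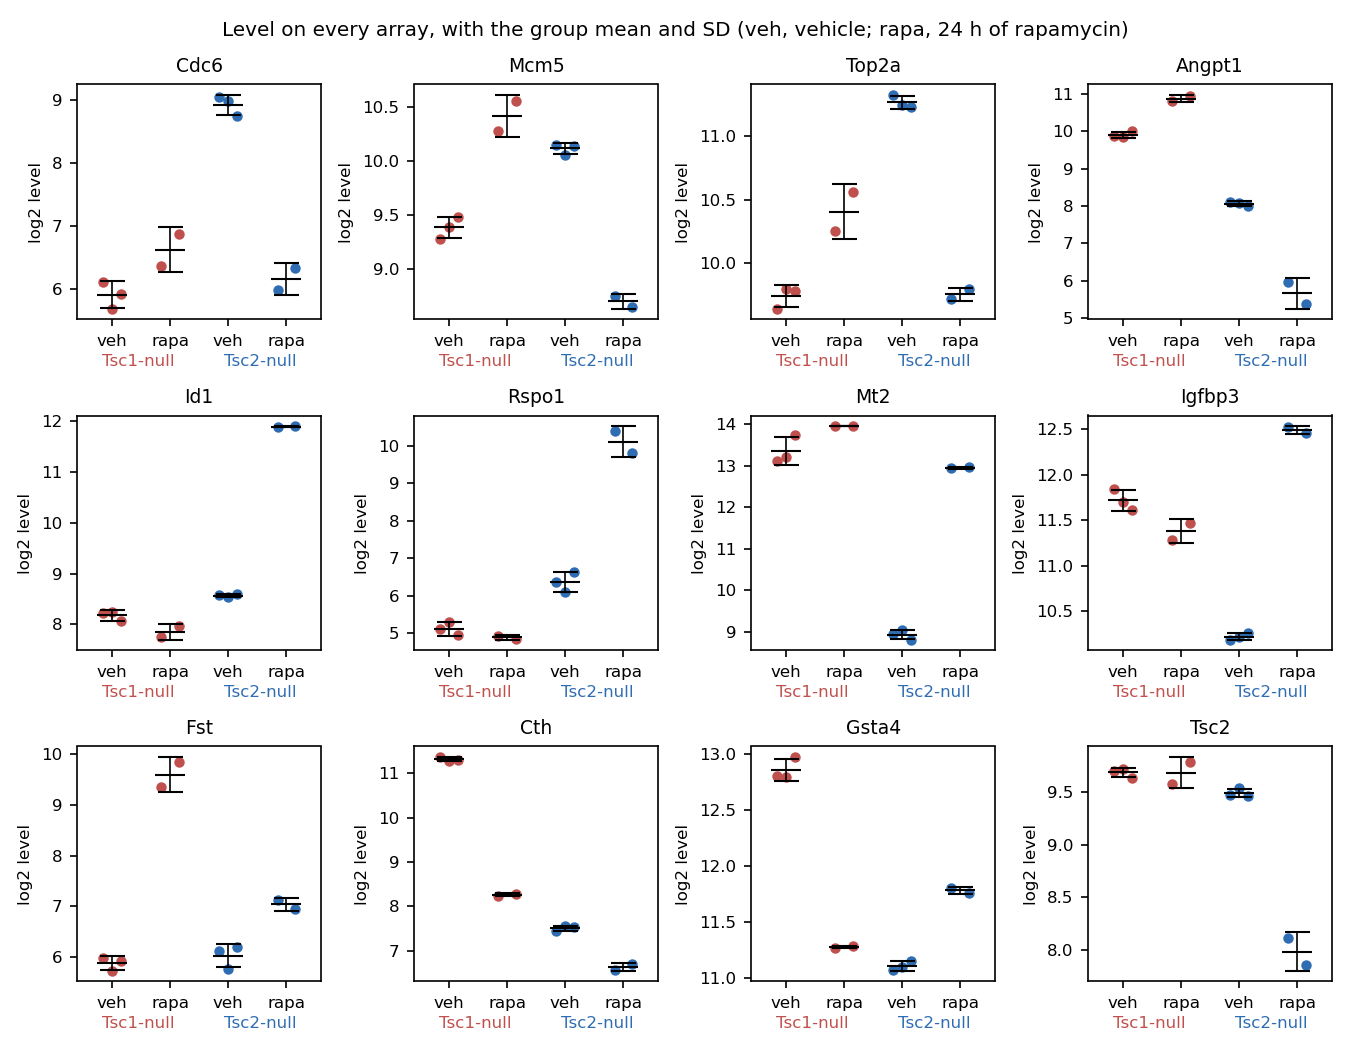
Log2 level on each array for 12 genes in Tsc1-null (red) and Tsc2-null (blue) cells under vehicle (3 arrays) and after 24 h of rapamycin (2 arrays), with the group mean and SD in black and a separate vertical scale for each gene. Mcm5 and Gsta4 traded the order of the lines, Id1 and Rspo1 rose in Tsc2-null and not in Tsc1-null cells, and Fst rose more in Tsc1-null cells.

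The Id factors are targets of BMP signalling and were counted with BMP and TGF-beta genes. Of 30 BMP, TGF-beta and Id genes, 9 had a lower and 3 a higher response in the Tsc1-null line (median -0.17), beside 12.1% and 8.14% of all genes. The 12 h match gave 5 lower and 6 higher (median -0.07). In Tsc2-null cells 21 rose and 0 fell, and in Tsc1-null cells 15 rose and 2 fell, where 17.5% and 11.6% of all genes rose. Id1, which blocks basic helix-loop-helix factors, stood at 8.22, 8.25 and 8.06 under vehicle and at 7.75 and 7.97 after rapamycin in Tsc1-null cells. On the Tsc2-null side it stood at 8.58, 8.53 and 8.60 under vehicle and at 11.89 and 11.90 after rapamycin. Tsc1-null arrays were lower than Tsc2-null arrays at both points, by a mean of -0.39 under vehicle and -4.04 at 24 h. The difference of responses was -3.65 (SE 0.17, limma adjusted p = 7.6e-12), or 12.6-fold. The Tsc1-null change of -0.32 was barely called (limma adjusted p = 0.048), and Id1 kept called responses of opposite sign in 2 of the 10 fits that left out 1 array. For example, without replicate 1 of the Tsc1-null 24 h arrays the Tsc1-null response was -0.21 (limma adjusted p = 0.366). Id3 rose in both lines, by 0.85 and 2.00. Id4 rose by 1.38 in Tsc2-null cells against -0.31 in Tsc1-null cells, which did not pass.

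Fst differed in the other direction. It encodes follistatin, which binds and neutralizes activins. It stood at 5.97, 5.72 and 5.92 under vehicle and at 9.35 and 9.84 after rapamycin in Tsc1-null cells. In Tsc2-null cells it stood at 6.11, 5.76 and 6.20 under vehicle and at 7.12 and 6.95 after rapamycin. The vehicle arrays of the lines overlapped near the low end of the array, and at 24 h the Tsc1-null arrays were higher by a mean of 2.57. Fst rose 13.2-fold in Tsc1-null and 2.01-fold in Tsc2-null cells, a log2 difference of responses of 2.72 (SE 0.21, limma adjusted p = 4.3e-09). The other probe set of Fst, about as bright on average, had a difference of 1.32 and a Tsc1-null rise of 1.84. Bmp4, a BMP ligand, also rose more in Tsc1-null cells, by 2.17 against 1.54.

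Of all genes, 12.1% had a lower and 8.14% a higher response in the Tsc1-null line. Of 15 measured genes of the IGF axis, 6 had a lower and 0 a higher response, and 5 of the 6 encode binding proteins. Without replicate 1 of the Tsc2-null 24 h arrays, and with the 12 h match, 2 were higher. Igfbp3, the main carrier of IGFs in serum, stood at 11.84, 11.70 and 11.61 under vehicle and at 11.28 and 11.47 after rapamycin in Tsc1-null cells. The Tsc2-null arrays had it at 10.18, 10.22 and 10.25 under vehicle and at 12.52 and 12.46 after rapamycin. The line with the higher level under vehicle had the lower level at 24 h, and the difference of responses was -2.61 (SE 0.12, limma adjusted p = 7.6e-12). The Tsc1-null fall of 0.34 was not called without replicate 1 of the Tsc1-null 24 h arrays, where it was -0.24 (limma adjusted p = 0.115). Igfbp2 and Igfbp7 rose by 2.50 and 2.23 in Tsc2-null cells, against 0.07, which did not pass, and 0.63 in Tsc1-null cells. Of the other probe sets of Igfbp7, the brighter had an uncalled difference of -0.38. By the probe set used, Igfbp5 fell by 3.55 in Tsc1-null and 2.39 in Tsc2-null cells, and the Tsc1-null treated arrays stood at 5.89 and 5.87, near the low end of the array. With the deposited log2 ratios its difference of -1.15 became 0.0089. A second Igfbp5 probe set, about as bright, had responses of -0.22 and -0.15 and a difference of -0.07 (limma adjusted p = 0.83).

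Rspo1 had the largest difference of responses in size among all genes called. It encodes R-spondin 1, which enhances WNT signalling. It stood at 5.11, 5.30 and 4.94 under vehicle and at 4.94 and 4.85 after rapamycin in Tsc1-null cells, all near the low end of the array. On the Tsc2-null side it stood at 6.36, 6.09 and 6.62 under vehicle and at 10.40 and 9.81 after rapamycin. The rise in Tsc2-null cells was 13.4-fold, the Tsc1-null arrays showed no called change, and the difference of responses was -3.97 (SE 0.27, limma adjusted p = 7.4e-10). Daam2, a formin that acts with the WNT receptor complex, had responses of -0.39 and 2.48, a difference of -2.87. Without replicate 2 of the Tsc1-null 24 h arrays the Tsc1-null response of Daam2 was -0.26 (limma adjusted p = 0.24). Edn1, the precursor of the vasoconstrictor endothelin 1, rose by 2.70 in Tsc2-null cells against 0.03 in Tsc1-null cells, which did not pass.

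The metallothioneins, small cysteine-rich proteins that bind zinc and copper, rose mainly in the Tsc2-null line, where they started lower. Metal response elements are known in their promoters, so the window of Mt2 is shown, chr8:94172368-94172667 (+) on GRCm38.p6 from RefSeq, with capitals for the core letters TGCACNC or TGCGCNC on either strand.
Mt2: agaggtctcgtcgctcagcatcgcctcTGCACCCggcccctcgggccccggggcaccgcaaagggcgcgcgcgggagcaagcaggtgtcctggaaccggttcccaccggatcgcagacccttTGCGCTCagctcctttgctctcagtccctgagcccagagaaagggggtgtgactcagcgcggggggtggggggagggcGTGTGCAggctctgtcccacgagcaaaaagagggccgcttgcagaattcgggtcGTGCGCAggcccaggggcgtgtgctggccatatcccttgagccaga
The window holds 4 such matches with no overlap. Short letters of this kind were found in 25.7% of all windows and in 36.4% of genes tested that have a window. Mt2 stood at 13.11, 13.20 and 13.73 under vehicle and at 13.95 on both arrays after rapamycin in Tsc1-null cells. In Tsc2-null cells it stood at 8.96, 9.04 and 8.81 under vehicle and at 12.94 and 12.97 after rapamycin. The lines were 4.41 apart on average under vehicle and 1.00 apart at 24 h, with the Tsc1-null line higher at both, and the highest value on any array of the study was 14.74. The difference of responses was -3.41 (SE 0.20, limma adjusted p = 1.6e-10), with rises of 0.61 and 4.02. Mt1, read at 12.09 to 13.80 in all groups, rose by 1.16 in Tsc2-null cells against 0.19 in Tsc1-null cells, which did not pass.

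Metabolic genes mostly fell in both lines, and the difference was one of size. All 18 measured genes of cholesterol synthesis and uptake fell in Tsc1-null cells (median -0.68), and 17 fell in Tsc2-null cells (median -1.24), where 18% and 18.1% of all genes fell. Of these 18, 13 had a higher response, here a smaller fall, in the Tsc1-null line and 1 a lower one (median difference 0.47). The shares over all genes were 8.14% and 12.1%. Nsdhl, a demethylation enzyme of the late pathway, fell by 0.51 and 1.39, and Fdps, the farnesyl diphosphate synthase, by 0.52 and 1.29. Averaging all probe sets of Fdps gave a difference of 0.27 (limma adjusted p = 0.0659). Insig1, which retains the SREBP activator in the endoplasmic reticulum, was the exception, with -0.27 in Tsc1-null and 0.41 in Tsc2-null cells. Its opposite signs were called in 7 of the 10 fits that left out 1 array. Without replicate 1 of the Tsc1-null 24 h arrays its Tsc1-null response had a limma adjusted p of 0.142.

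Of 18 fatty acid genes, 7 had a higher and 0 a lower response in the Tsc1-null line (median difference 0.19). The shares over all genes were 8.14% and 12.1%. The 7 became 3 without replicate 2 of the Tsc1-null 24 h arrays. It became 4 without Tsc1-null vehicle replicate 3, Tsc2-null vehicle replicate 1 or Tsc2-null 24 h replicate 2, and 2 with the 12 h match. Srebf1, the transcription factor of that pathway, fell by 0.91 in Tsc2-null cells against -0.16 in Tsc1-null cells, which did not pass. Of 17 glycolysis genes, 12 fell in Tsc1-null and 16 in Tsc2-null cells, and 7 had a higher and 0 a lower response in the Tsc1-null line (median 0.22). Slc16a3, the lactate exporter MCT4, stood at 6.23, 6.09 and 6.07 under vehicle and at 6.03 and 5.96 after rapamycin in Tsc1-null cells. The Tsc2-null arrays had it at 11.45, 11.46 and 11.54 under vehicle and at 9.17 and 9.0 after rapamycin. It fell 5.26-fold in Tsc2-null cells and was near the low end of the array in Tsc1-null cells at both points. Hk2, the hexokinase that starts glycolysis, fell in both lines by 1.58 and 1.91, and its difference of 0.33 did not pass (limma adjusted p = 0.066). The Hk2 difference did pass in 7 of the fits with other processing or other arrays. Slc2a1, the glucose transporter, had a difference of -0.09 (limma adjusted p = 0.75).

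Most hypoxia-response and amino acid genes fell in both lines, and how their differences split depended on the time label. Of 18 HIF targets outside glycolysis, 17 fell in Tsc1-null and 14 in Tsc2-null cells, and 3 had a higher and 4 a lower response in the Tsc1-null line. The 12 h match gave 0 and 6. Among all genes, 18% and 18.1% fell, 8.14% had a higher and 12.1% a lower response. The carbonic anhydrase gene Car9 stood at 10.64, 10.64 and 10.76 under vehicle and at 9.01 and 8.62 after rapamycin in Tsc1-null cells, against 5.92 to 6.24 on all Tsc2-null arrays. It fell by 1.87 in Tsc1-null cells, and the Tsc2-null arrays were near the low end of the array. Of 28 ATF4 targets and amino acid genes, 27 fell in Tsc1-null and 26 in Tsc2-null cells, with medians of -1.49 and -1.44, and 6 had a higher and 5 a lower response. With the 12 h match 4 were higher and 13 lower (median difference -0.36 against 0.02). Cth, which makes cysteine from cystathionine, stood at 11.36, 11.28 and 11.30 under vehicle and at 8.23 and 8.28 after rapamycin in Tsc1-null cells. In Tsc2-null cells Cth stood at 7.43, 7.55 and 7.52 under vehicle and at 6.57 and 6.70 after rapamycin. It fell 8.32-fold and 1.82-fold, a difference of -2.19 (SE 0.15, limma adjusted p = 4.7e-10), and the Tsc1-null line remained the higher one. Vldlr, a lipoprotein receptor, differed the other way, with falls of 1.28 and 2.66. The other, dimmer probe sets of Vldlr had called differences of 1.31 and 0.82 and uncalled ones of 0.48, 0.03 and -0.12. Asns, the asparagine synthetase, and Atf4 itself did not pass by the probe sets used, with differences of -0.16 and -0.10. The other probe sets of Atf4 had differences of 0.61 (limma adjusted p = 0.036) and -0.38, the latter not called.

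Of 30 serum response and immediate early genes, 17 rose in Tsc1-null and 20 in Tsc2-null cells, and 9 had a lower and 4 a higher response in the Tsc1-null line. Of all genes, 11.6% and 17.5% rose, 12.1% had a lower and 8.14% a higher response. With the 12 h match 15 of the 30 were lower and 4 higher. Dusp6, an ERK phosphatase, stood at 6.11, 6.39 and 6.51 under vehicle and at 7.57 and 7.65 after rapamycin in Tsc1-null cells. In Tsc2-null cells Dusp6 stood at 6.06, 5.87 and 5.71 under vehicle, near the low end of the array, and at 9.37 and 9.14 after rapamycin. The treated groups lay above the vehicle groups in both lines and did not overlap each other. Its rises of 1.27 and 3.37 differed by -2.10 (SE 0.16, limma adjusted p = 3.7e-09), and those of Spry2, a sprouty inhibitor of receptor signalling, were 1.09 and 2.20. The dimmer probe set of Spry2 had a difference of -0.24 (limma adjusted p = 0.43). Ccn2, a matricellular protein known as CTGF, rose by 1.56 and 3.34, while its relative Ccn1 rose by 3.04 and 1.64. For Ccn1 the mean over its probe sets gave a difference of 0.42 (limma adjusted p = 0.058). Its probe sets disagreed in sign, with differences of 1.78 (called), -0.84 (called) and -0.67 (not called) for those not used.

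Inflammatory mediators differed in both directions. Of 26 chemokine, cytokine and acute phase genes, 17 rose in Tsc1-null and 15 in Tsc2-null cells. In the Tsc1-null line 6 had a higher and 6 a lower response, or 4 and 9 with the 12 h match. Among all genes, 11.6% and 17.5% rose, 8.14% had a higher and 12.1% a lower response. Ptgs2, the inducible cyclooxygenase, stood at 7.84, 7.77 and 7.89 under vehicle and at 9.53 and 9.96 after rapamycin in Tsc1-null cells. On the Tsc2-null side it stood at 8.49, 8.45 and 8.52 under vehicle and at 8.30 and 8.50 after rapamycin. The Tsc1-null groups were apart and the Tsc2-null groups overlapped, and the difference of responses was 2.01 (SE 0.16, limma adjusted p = 7.9e-09). The neutrophil chemoattractant Cxcl5 rose by 1.98 in Tsc1-null cells against -0.28 in Tsc2-null cells, which did not pass. Cxcl12, the ligand of CXCR4, rose by 0.34 and 1.60. Of 34 extracellular matrix genes, 14 rose in Tsc1-null and 25 in Tsc2-null cells, and 11 had a lower and 5 a higher response in the Tsc1-null line, or 8 and 7 with the 12 h match. Timp3, an inhibitor of matrix proteases, rose by 1.64 in Tsc2-null cells against -0.19 in Tsc1-null cells, which did not pass, and the short-chain collagen gene Col8a1 rose by 2.61 in Tsc1-null and 0.39 in Tsc2-null cells. Acta2, the smooth muscle actin, rose by 2.33 in Tsc1-null and 0.99 in Tsc2-null cells.

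Among 27 genes of the TSC and mTOR complexes, 6 had a higher and 6 a lower response in the Tsc1-null line. The shares over all genes were 8.14% and 12.1%. The probe set of Tsc2 fell in the line that lacks the gene. It stood at 9.70, 9.72 and 9.64 under vehicle and at 9.58 and 9.79 after rapamycin in Tsc1-null cells. In Tsc2-null cells it stood at 9.48, 9.54 and 9.46 under vehicle and at 8.11 and 7.85 after rapamycin. The Tsc1-null groups overlapped and the Tsc2-null groups did not, with a difference of responses of 1.51 (SE 0.13, limma adjusted p = 1.8e-08). Tsc1 had a difference of 0.61 (limma adjusted p = 0.022), a call that was lost in 6 of the 10 fits that left out 1 array, with adjusted p-values up to 0.083 without replicate 1 of the Tsc2-null 24 h arrays. The other, dimmer probe sets of Tsc1 had uncalled differences of 0.20 and -0.10. Prr5, a subunit of mTORC2, rose by 1.50 in Tsc2-null cells against -0.07 in Tsc1-null cells, where all arrays lay under 5. Ddit4, also called REDD1, an inhibitor of mTORC1, fell by 1.61 and 2.43.

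The remaining lists stand beside the 20.2% of all genes that were called. Of 34 lysosome and autophagy genes, 2 had a higher and 4 a lower response in the Tsc1-null line, of 22 genes of the unfolded protein response 3 and 3, and of 25 interferon genes 5 and 4. With the 12 h match these were 0 and 6, 7 and 2, and 3 and 2. The 2 higher lysosome genes became 0 without Tsc1-null vehicle replicate 1, Tsc1-null 24 h replicate 2 or Tsc2-null vehicle replicate 1 or 3. The 3 lower genes of the unfolded protein response became 0 without Tsc1-null vehicle replicate 2, and 1 without Tsc1-null 24 h replicate 2, Tsc2-null vehicle replicate 2 or Tsc2-null 24 h replicate 1. For 12 cytosolic ribosomal proteins and translation factors the counts by limma were 0 and 0, and at an unadjusted p under 0.05 they were 0 and 1, the latter Rps14. Ribosome biogenesis and MYC targets had 9 higher and 0 lower of 30. The 9 became 4 without replicate 2 of either line's 24 h arrays, and 14 with the 12 h match. Genes of oxidative phosphorylation and the TCA cycle had 3 higher and 7 lower of 26, which became 0 and 4 without replicate 1 of the Tsc2-null 24 h arrays. Their 3 higher became 1 without replicate 2 of the Tsc1-null 24 h arrays and with the 12 h match. Of 23 p53 targets, 3 had a higher and 6 a lower response in the Tsc1-null line. Gadd45a fell by 0.80 and 2.01, and Cdkn1a, the p21 inhibitor of cyclin-dependent kinases, fell by 1.32 in the line with p53 and by 2.06 in the line without it, while the deposited log2 ratios gave a difference of the opposite sign, -0.68.

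**Figure D4:**
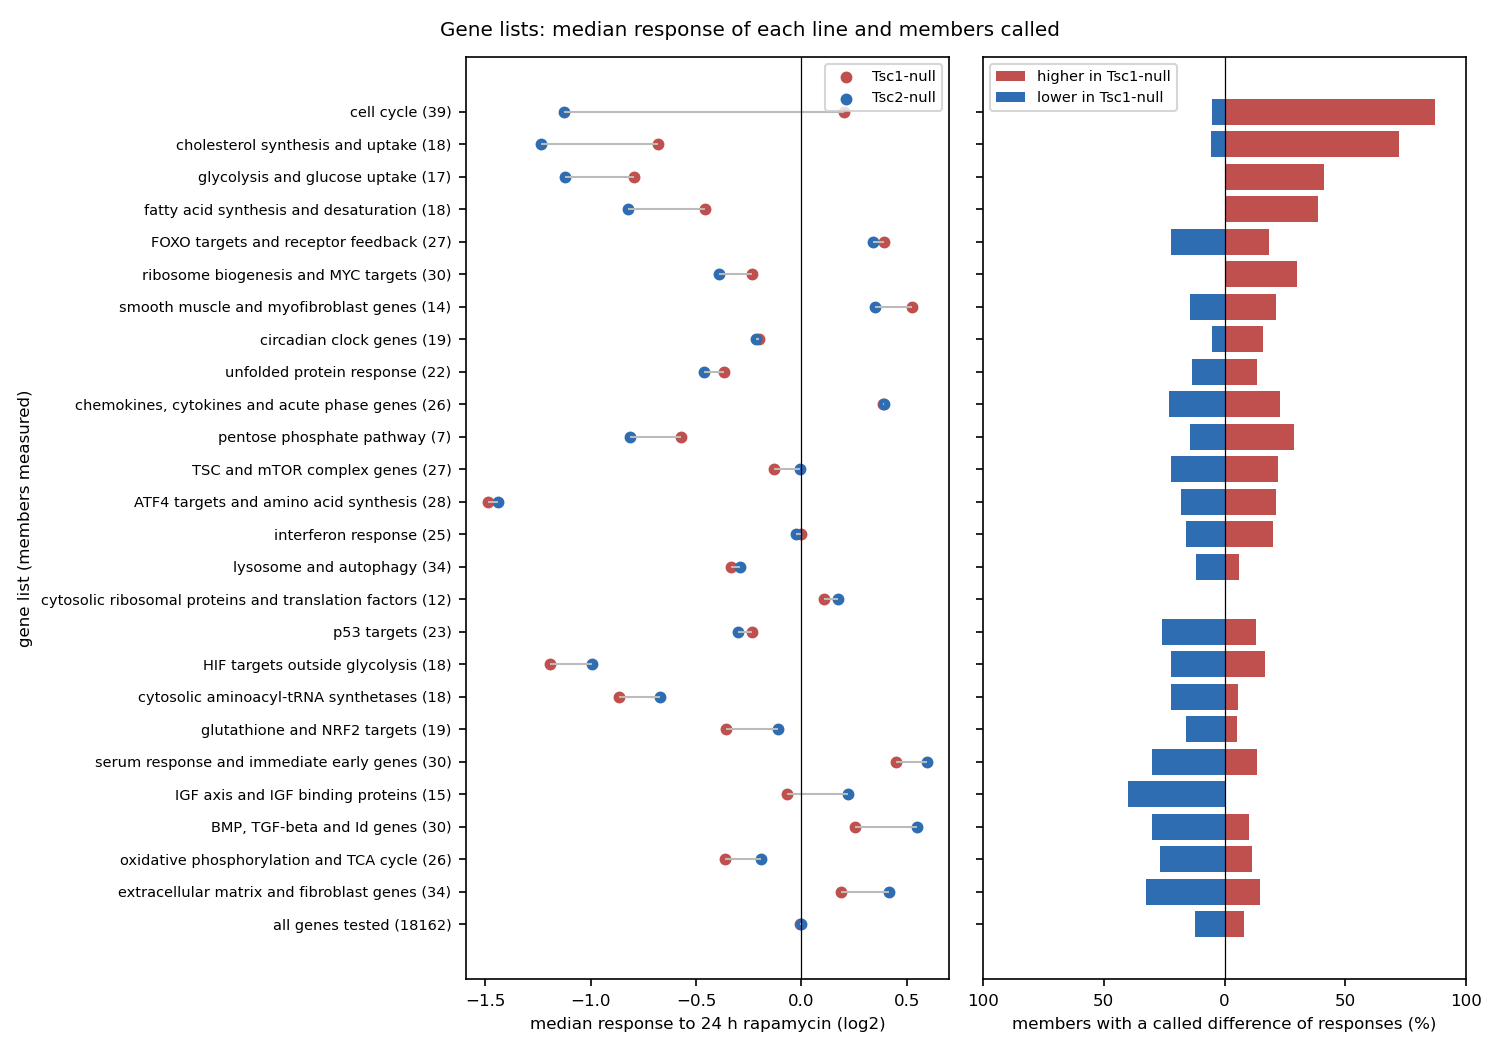
Gene lists with the number of measured members, all genes tested in the bottom row. Left, median log2 response to 24 h of rapamycin in Tsc1-null (red) and Tsc2-null (blue) cells. Right, percent of members with a called difference of responses, higher in Tsc1-null to the right and lower to the left. The cell cycle list, at 0.20 and -1.13, has the widest gap among the medians shown, and the cholesterol list follows at -0.68 and -1.24.

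The differences built up over the time course. All times share the vehicle arrays of their line, so their values are not independent. At 2 h, 19 genes (0.105%) passed the test of the difference of responses, at 6 h 755 (4.16%) and at 12 h 2046 (11.3%), against 3669 at 24 h. Id1 differed by -0.66, -1.85, -2.99 and -3.65 at 2, 6, 12 and 24 h. Cdc6 differed by -0.11, 0.41, 1.66 and 3.48, and Mcm5 by 0.00, 0.02, 0.96 and 2.46. In limma's test the difference of Id1 passed at 6 h and at 12 h, and those of Cdc6 and Mcm5 passed at 12 h and not at 6 h. Mt2 differed by -0.32 at 6 h and by -2.92 at 12 h. For the cell cycle list the count of members with a higher response in the Tsc1-null line was 0, 0, 21 and 34 at the 4 times (by an unadjusted limma p under 0.05, 1 at 2 h and 3 at 6 h), where 0.044%, 1.28%, 5.87% and 8.14% of all genes were, with medians of -0.09, -0.12, 0.50 and 1.45. The clock-regulated gene Noct was nearly at its full difference at 12 h, with 1.94 against 2.00 at 24 h. With the 12 h match, Cdc6 differed by 2.65, Mcm5 by 1.50, Top2a by 0.89, Angpt1 by 2.44, Fst by 3.26 and Ptgs2 by 1.41. In the other direction Gsta4 differed by -2.00, Id1 by -2.79, Igfbp3 by -1.61, Rspo1 by -2.98, Mt2 by -3.00, Cth by -2.00 and Dusp6 by -2.09. These genes kept direction and call, while the differences of Rrm2, Id3, Ddit4 and Gadd45a were no longer called by limma.

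**Figure D5:**
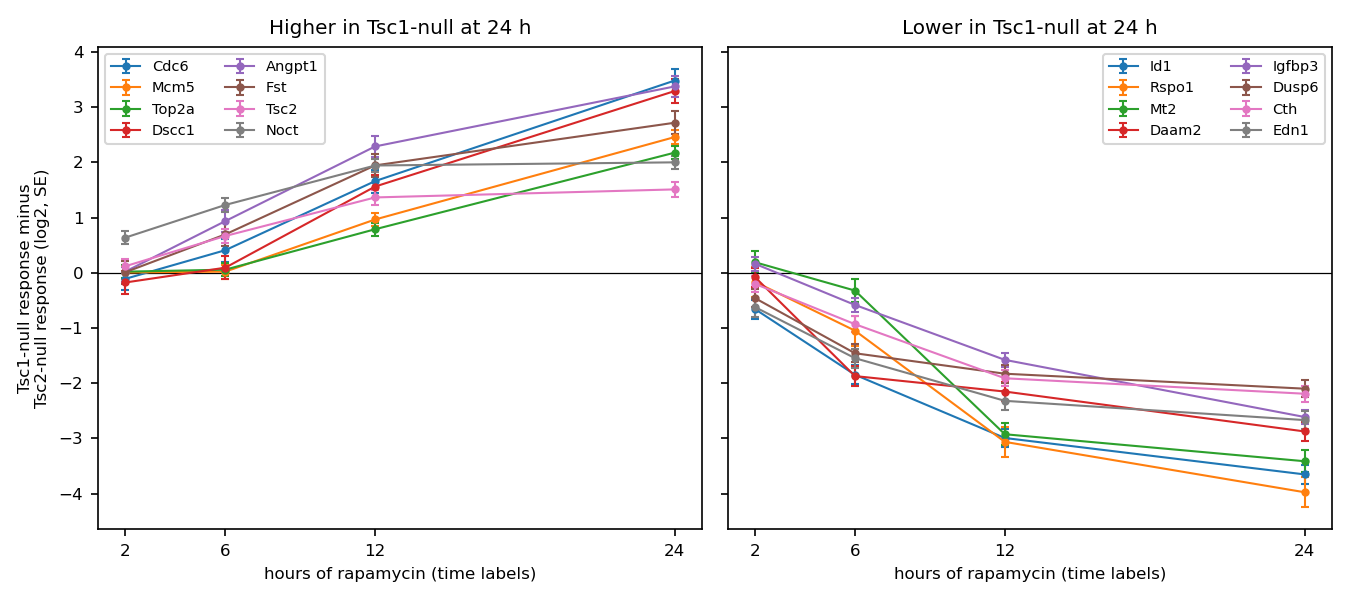
Difference of responses (Tsc1-null minus Tsc2-null, log2, with the fitted SE) at the labelled 2, 6, 12 and 24 h of rapamycin for 8 genes that were higher (left) and 8 that were lower (right) in Tsc1-null cells at 24 h. At 2 h all 16 lie between -0.66 and 0.64, and Id1 and Daam2 are at -1.85 and -1.87 at 6 h while Cdc6 and Mcm5 are at 0.41 and 0.02.

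Markers of other cell types were counted in the same way. By limma, 0 of 10 skeletal muscle and 0 of 9 neural markers passed the test of the difference of responses. At an unadjusted limma p under 0.05 these counts were 0 and 1. By the adjusted test 2 of 12 epithelial, 1 of 10 endothelial, 3 of 10 macrophage and 2 of 8 adipocyte markers passed. Among 10 fibroblast markers, 3 had a higher and 2 a lower response in the Tsc1-null line. The share over all genes was 20.2%. The summed linear signal of the epithelial markers ran from 1306 to 1440 under vehicle and from 1493 to 1542 at 24 h in Tsc1-null cells. In Tsc2-null cells it ran from 6221 to 6364 and from 5485 to 5856. The sum of the 10 fibroblast markers ran from 69306 to 72661 and from 88498 to 88699 in Tsc1-null cells, and from 75531 to 78470 and from 90176 to 91826 in Tsc2-null cells. The macrophage sum ran from 1442 to 1551 and from 1272 to 1341 in Tsc1-null cells, and from 968 to 1052 and from 1131 to 1180 in Tsc2-null cells, so it fell in the one line and rose in the other with no overlap. The endothelial sum ran from 1101 to 1227 and from 1123 to 1127 in Tsc1-null cells, and from 934 to 1001 and from 1271 to 1310 in Tsc2-null cells. The adipocyte sum ran from 769.7 to 833 and from 492 to 578 in Tsc1-null cells, and from 4392 to 4614 and from 4787 to 5656 in Tsc2-null cells. The skeletal muscle sum overlapped between vehicle and 24 h in both lines, and the neural sum was lower at 24 h in Tsc2-null cells without overlap (1700 to 1897 against 1548 to 1678). The part of these markers in the results was not tested. The adipocyte marker Fabp4, a fatty acid carrier, stood at 8.30, 8.47 and 8.62 under vehicle and at 5.58 and 5.56 after rapamycin in Tsc1-null cells, and at 5.39 to 5.74 on all Tsc2-null arrays. The probe set used had a difference of -3.13, and of its 3 other, dim probe sets 1 had -2.79 (limma adjusted p = 3.8e-10) and the others -0.05 and -0.07.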

How the data were processed

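The authors deposited log2 expression values for 25 arrays of 45101 probe sets. Processing was by RMA and limma, per the submitters' processing notes. Probe sets that name 1 gene (34945) were kept, 59 symbols were updated through RefSeq, and each of 18162 genes was represented by its probe set of highest mean across arrays. Listed genes with no such probe set were not analysed here. RMA compresses low signals, so folds near the low end of the array are likely too small. Background intensities were not used here, and the number of arrays limits precision.

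A linear model over 25 arrays in 11 groups was fitted with limma 3.58.1 in R 4.3.3 (lmFit and eBayes, 14 residual and 7.08 prior degrees of freedom). The difference of responses was tested as a contrast, with Benjamini-Hochberg adjustment at 0.05. The fit was tested on simulated data. Alternatives were quantile normalization, median centring, an offset of 64, leaving out the dimmest 40% of genes, the mean of probe sets, trended robust variances, only 10 arrays, a replicate block, the deposited log2 ratios and leaving out each array.

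Named genes were a set list, the 3 smallest p-values per gene list, the 12 largest differences in each direction with a group mean of at least 8, and the 8 largest of each opposite kind. Further genes were named after their values were seen. The comparison and the gene lists were chosen with earlier results of these data known. Scan dates were not given in the sources used here.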

Additional observations from a re-analysis of the deposited data

Results flagged for a closer look

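The results below were picked out because the difference between the lines' responses itself passed limma's test at a Benjamini-Hochberg adjusted p of 0.05. The counts are 1478 genes with a higher response in Tsc1-null cells, 2191 with a lower one and 437 with called responses of opposite sign. All gene values here are differences of log2 responses, Tsc1-null minus Tsc2-null, from 3 vehicle and 2 rapamycin arrays per line.

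Among replication and division genes, Cdc6 differed by 3.48, Ccne2 by 3.03 and Mcm5 by 2.46. Dscc1 differed by 3.29, Depdc1a by 3.26, Rad51ap1, a recombination factor, by 2.73, and Ncapg2, a condensin subunit, by 2.66. Hells differed by 2.65, Ect2 by 2.44, and Atad2, a chromatin ATPase, by 2.45. The other probe sets of Atad2 gave -0.19 and 0.89. Depdc1a had called responses of opposite sign in 7 of the 10 fits that left out 1 array.

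Among secreted and signalling genes, Angpt1 differed by 3.37, Fst by 2.72, the chemokine gene Cxcl3 by 2.46 and the fatty acid receptor gene Ffar4 by 2.61. The last 2 lay near the low end of the array in all Tsc1-null samples. In the other direction were Rspo1 (-3.97), Id1 (-3.65), Daam2 (-2.87), Edn1 (-2.67), Igfbp3 (-2.61) and Igfbp2 (-2.44). Ltbp2, a matrix protein of the latent TGF-beta binding protein family, differed by -2.98, the anchoring protein gene Akap5 by -2.68, and Smoc2 and Nnat by -2.44 each. These 4 were near the low end of the array in Tsc1-null cells.

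Mt2 differed by -3.41, Fabp4 by -3.13, Gsta4 by -2.26, Arhgap44 by -2.31, Plvap, an endothelial marker, by -2.12 and Mest by -1.91. Rab40b differed by -2.58, while its other probe set gave -0.66 and the deposited log2 ratios gave -0.06.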

How the results depend on the processing

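The count of genes with a called difference of responses was 3669 and lay between 3087 (arrays centred on their medians) and 4171 (quantile normalization) over the processing alternatives, 2763 to 3615 when 1 array was left out, and 3330 with the Tsc2-null 12 h arrays in place of its 24 h arrays, an alternative chosen after seeing the data. Leaving out 1 array gave 4337 to 5386 Tsc1-null responses, 5317 to 6555 Tsc2-null responses and 301 to 415 responses of opposite sign. A lone treated array was assumed to vary like the other groups. Of 13 correlations between the deviations of same-numbered plates, 3 were over 0.1 (range -0.22 to 0.22). The 2 arrays of a treated group deviate in mirror image, so this check cannot decide whether the replicate numbers pair the samples. Between the vehicle groups of the 2 lines, same-numbered plates correlated at 0.04, 0.10 and 0.12, and differently numbered ones at -0.18 to 0.13. The replicate block gave 3524 genes. Over named genes and alternatives, 3939 values kept direction and call, 126 lost the call (46 genes), 37 gained it (15 genes) and 15 reversed (14 genes). With the 12 h arrays, the reversed differences were -0.25 for Birc5, -0.32 for Ccnb2, -0.68 for Egr1, -0.0040 for Hif1a, 0.28 for Id2, 0.029 for Igf1, -0.019 for Kif20a, -0.044 for Mthfd2, -0.011 for Scd1 and 0.25 for Tagln. With the deposited log2 ratios, they were -0.68 for Cdkn1a, -0.59 for Egr1, 1.12 for Fbxo32, 0.0089 for Igfbp5 and 0.22 for Il6, and Cdc6 differed by 1.10 in place of 3.48. That table is at 0 on every array for 61.4% of probe sets and leaves 9522 genes. Otherwise the cause was not tested. The 2 treated arrays per line and genes near the low end of the array limit the precision.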

Other observations

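Other lists had these counts of genes with a higher and a lower response in the Tsc1-null line, beside 8.14% and 12.1% of all genes: cytosolic aminoacyl-tRNA synthetases 1 and 4 of 18, glutathione and NRF2 targets 1 and 3 of 19, FOXO targets and receptor feedback genes 5 and 6 of 27, circadian clock genes 3 and 1 of 19, smooth muscle genes 3 and 2 of 14 and the pentose phosphate pathway 2 and 1 of 7. When 1 array was left out, the lower tRNA synthetase count ran from 2 to 5 (2 in 7 of 10 fits), and the lower clock count became 3 without replicate 2 of the Tsc2-null 24 h arrays. With the Tsc2-null 12 h arrays in place of its 24 h arrays, the 6 lists in this order had 0 and 6, 0 and 5, 4 and 7, 3 and 4, 7 and 0, and 1 and 1. Yars, the tyrosyl-tRNA synthetase, fell by 0.96 in Tsc1-null and 0.43 in Tsc2-null cells. Nqo1, a quinone reductase under NRF2 control, fell by 1.33 and 0.38. Irs2, an adaptor of the insulin receptor, rose by 0.64 and 1.47. Dbp, a clock output factor, rose by 0.63 in Tsc2-null cells against -0.20 in Tsc1-null cells, which did not pass. Uqcrc2, a core subunit of respiratory complex III, fell by 0.33 in Tsc1-null and rose by 0.53 in Tsc2-null cells, with the fall not called when the mean of its probe sets was taken (limma adjusted p = 0.0668). The chemokine Cxcl10 rose by 1.67 in Tsc1-null cells against 0.33 in Tsc2-null cells, which did not pass.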
